A study of Mus musculus with 7 samples.

Results

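The genes of the cytosolic ribosome are described here by where the vitamin D receptor (VDR) was found on the chromatin around them. The set held the 80 protein-coding genes of the mm9 annotation whose symbol is Rpl or Rps with a number (an added a, l or x allowed), with Rplp0, Rplp1, Rplp2 and Rpsa. It was drawn from 22367 protein-coding genes on chromosomes 1 to 19, X and Y, and kinases of the Rps6k family and pseudogenes were left out. The symbols alone decided membership, so no measured value was used. Of the 80, 48 encode proteins of the large subunit and 32 proteins of the small subunit.

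Ribosomal proteins assemble with ribosomal RNA into the subunits that read messenger RNA and join amino acids. Their genes are expressed in nearly every cell, are kept in step with growth signals such as mTOR and Myc, and often begin transcription at a run of pyrimidines that makes their messenger RNAs sensitive to mTOR. Many carry small nucleolar RNAs (snoRNAs), the guides for ribosomal RNA modification, in their introns. The intestinal epithelium renews itself continuously from dividing crypt cells and makes large amounts of digestive enzymes and transporters, so it has a high demand for ribosomes. VDR is a nuclear receptor that binds DNA together with RXR, classically at a direct repeat with a spacer of 3 bases (DR3), and the active vitamin D hormone 1,25(OH)2D3 is its ligand.

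Chromatin immunoprecipitation with sequencing (ChIP-seq) for VDR was performed on epithelial cells released with EDTA from the duodenum and jejunum of wild-type mice. The mice ate a standard chow and were 8 weeks old. One group of 3 libraries came from mice given 1,25(OH)2D3 at 10 ng per g body weight 1 h before harvest, and the other group of 3 from mice given vehicle. The only input library listed carried the 1,25(OH)2D3 dose and has no file of its own here. The series title states an interest in the VDR target genes of the proximal intestine and in calcium regulation, and ribosomal protein genes are not mentioned there.

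Sequencing depth was 17152461, 17438643 and 66524392 tags in 1,25(OH)2D3 replicates 1, 2 and 3, and 19733260, 15991198 and 68560701 tags in vehicle replicates 1, 2 and 3. The lists held 25510, 30390 and 41722 peaks with 1,25(OH)2D3, against 8756, 14888 and 48425 peaks with vehicle. Vehicle replicate 3 therefore had the longest list, while the share of its tags inside peaks (8.10%) lay below that of the lowest 1,25(OH)2D3 library (11.9%) and above the other vehicle libraries (2.58% and 4.81%). The files give the position of each peak and no height, so the values below count peaks. Peaks stood within 50 kb of genes that mark intestinal epithelium, such as Vil1 (7, 8 and 9 peaks with 1,25(OH)2D3, against 3, 4 and 6 with vehicle). At the epithelial gene Lct the group means were equal (4, 5 and 5, against 2, 6 and 6). Peaks also stood near the endothelial gene Pecam1 (7, 12 and 12, against 2, 7 and 10) and the neuronal gene Rbfox3 (5, 4 and 10, against 0, 1 and 4). Of the immune genes, Cd3e had 5, 4 and 8, against 3, 4 and 3, and Ptprc had 0, 0 and 1, against 0, 0 and 6. A peak is no measure of expression, so the purity of the cells was not tested.

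The start sites of 6 ribosomal protein genes are printed as examples of the promoter classes described below. Each is 150 bases of mm9 (NCBI build 37), from -130 to 20 relative to the outermost annotated start (the base at 1), on the gene's own strand. Capitals mark matches on either strand to CCGGAA (the core bound by ETS factors), ATGGCGG (YY1) or GGGCGG (SP1). The motif counts further below use other windows, so these marks need not match them. In the windows around the peak regions, Rps26 and Rpl38 held CCGGAA, while Rps7 and Rps6 held GGGCGG and no CCGGAA. Rpl10, on chrX:71516021-71516170 (plus strand), and Rps7, on chr12:29320799-29320948 (minus strand), had a VDR peak in all 6 libraries. Rps6, on chr4:86503297-86503446 (minus strand), and Rps26, on chr10:128063543-128063692 (minus strand), had one in all 3 1,25(OH)2D3 libraries and in 2 vehicle libraries. Rps27l, on chr9:66793763-66793912 (plus strand), had one in 2 1,25(OH)2D3 libraries and in all 3 vehicle libraries. Rpl38, on chr11:114529708-114529857 (plus strand), had one in 2 vehicle libraries and in no 1,25(OH)2D3 library.
Rpl10: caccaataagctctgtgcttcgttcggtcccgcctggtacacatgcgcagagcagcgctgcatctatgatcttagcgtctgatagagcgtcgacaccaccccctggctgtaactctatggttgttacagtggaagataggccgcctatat
Rps7: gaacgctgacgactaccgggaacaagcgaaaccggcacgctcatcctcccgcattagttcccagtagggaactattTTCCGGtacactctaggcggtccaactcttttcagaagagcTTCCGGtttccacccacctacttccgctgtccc
Rps6: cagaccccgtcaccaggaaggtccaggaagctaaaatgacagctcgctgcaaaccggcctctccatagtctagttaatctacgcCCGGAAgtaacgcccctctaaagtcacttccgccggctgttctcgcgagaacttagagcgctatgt
Rps26: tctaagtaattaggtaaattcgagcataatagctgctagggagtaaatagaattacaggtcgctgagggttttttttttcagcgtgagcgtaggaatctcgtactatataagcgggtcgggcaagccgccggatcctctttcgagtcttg
Rps27l: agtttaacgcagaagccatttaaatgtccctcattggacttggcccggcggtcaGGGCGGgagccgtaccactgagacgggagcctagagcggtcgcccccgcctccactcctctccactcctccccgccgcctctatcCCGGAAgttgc
Rpl38: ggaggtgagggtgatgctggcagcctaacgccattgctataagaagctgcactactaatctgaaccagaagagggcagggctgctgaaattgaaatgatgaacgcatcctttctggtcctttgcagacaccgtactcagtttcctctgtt

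The Rpl28 promoter is printed because it was the one ribosomal protein promoter with a peak in every 1,25(OH)2D3 library and in no vehicle library. The 201 bases lie on chr7:4744266-4744466 (mm9, plus strand), centred on the peak region and wholly upstream of the gene. Capitals mark the 15 bases closest to a DR3 element.
Rpl28: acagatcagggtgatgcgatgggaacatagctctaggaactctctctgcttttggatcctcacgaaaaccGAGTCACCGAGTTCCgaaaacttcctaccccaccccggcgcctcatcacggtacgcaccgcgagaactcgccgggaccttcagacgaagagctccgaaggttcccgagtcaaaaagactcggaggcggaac

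The closest matches to a DR3 element within 100 bp of a peak region's centre were also read for Rpl28 and for 5 more ribosomal protein genes. Here capitals mark the bases that match DR3 and lower case marks mismatches and the spacer. Rpl6 is shown as the closest match of the whole set, with 1 mismatch. Rpl28 and Rpl18 (at its region found with hormone only), Rpl10 and Rps26 each had 2 mismatches, and Rps7 had 3. The matches lie at chr5:121654489-121654503 (Rpl6, minus strand), chr7:4744336-4744350 (Rpl28, plus), chr7:52969999-52970013 (Rpl18, plus), chrX:71516139-71516153 (Rpl10, plus), chr10:128063757-128063771 (Rps26, minus) and chr12:29320804-29320818 (Rps7, plus).
Rpl6: AGGTGAccaAGaTCA
Rpl28: GaGTCAccgAGTTCc
Rpl18: GGGTGAgccAGGaCt
Rpl10: GGTTGttacAGTgGA
Rps26: AGGTtAaatAGTTCc
Rps7: AGcgGAagtAGGTGg

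The first comparison was the share of ribosomal protein genes with a VDR peak at the promoter, meaning a peak centre within 1 kb of any annotated transcription start. With 1,25(OH)2D3, 18, 26 and 29 of the 80 genes had such a peak in replicates 1, 2 and 3, against 5, 17 and 22 with vehicle. As shares these were 22.5%, 32.5% and 36.2% with 1,25(OH)2D3 and 6.25%, 21.2% and 27.5% with vehicle. The groups overlapped, since vehicle replicate 3 lay above 1,25(OH)2D3 replicate 1. The mean was 30.4% ± 7.11 with 1,25(OH)2D3 and 18.3% ± 10.9 with vehicle (SD, n = 3 each), a difference of 12.1 percentage points. In each same-numbered pair, a pairing that the labels do not state, the 1,25(OH)2D3 library had the higher share. The 3 pair differences had an SD of 3.82 points. The difference was therefore larger than the spread within either group and than the spread of the pair differences, and no p-value is given because the set was chosen with earlier results known. The 95% Wilson interval ran from 14.7% to 32.8% for the lowest 1,25(OH)2D3 share and from 2.70% to 13.8% for the lowest vehicle share, and such intervals cover counting error only.

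Over all protein-coding genes the same share averaged 20.6% ± 3.89 with 1,25(OH)2D3 and 9.41% ± 4.20 with vehicle (SD, n = 3 each), a difference of 11.2 percentage points. Ribosomal protein genes stood above that share in each of the 6 libraries. Their starts are often rich in CpG dinucleotides: 58 of the 80 (against 42.0% of all genes) had at least 50% G+C and an observed over expected CpG of at least 0.6 in the window from 250 bases before to 50 after the start. The 9389 genes with such a start were therefore used as a second background. Their share was 23.8%, 29.9% and 36.4% in the 1,25(OH)2D3 libraries, against 7.99%, 11.8% and 18.3% in the vehicle libraries. Ribosomal protein genes minus CpG-rich genes came to -1.32, 2.61 and -0.122 percentage points with 1,25(OH)2D3, and to -1.74, 9.47 and 9.24 with vehicle. The share over all 80 genes, with or without such a start, was thus within 3 points of the CpG-rich genes in every 1,25(OH)2D3 library. In vehicle replicates 2 and 3 it stood more than 9 points above them. The 58 genes with a CpG-rich start had shares of 24.1%, 36.2% and 41.4% with 1,25(OH)2D3, against 8.62%, 24.1% and 27.6% with vehicle. Like for like, these lay above the CpG-rich genes in each of the 6 libraries, and by the most in vehicle replicates 2 and 3.

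**Figure D1:**
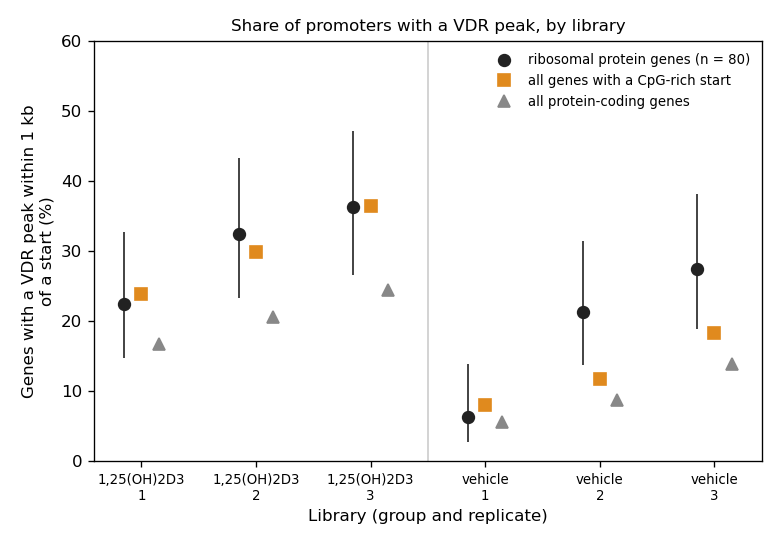
Share of genes (%) with a VDR peak within 1 kb of a start, for each of the 3 1,25(OH)2D3 and 3 vehicle libraries: ribosomal protein genes (black circles with 95% Wilson intervals, n = 80), all genes with a CpG-rich start (squares) and all protein-coding genes (triangles). Black circles and squares lie close together in the 1,25(OH)2D3 libraries and apart in vehicle replicates 2 and 3, where ribosomal protein genes reached 21.2% and 27.5%. The circles cover all 80 genes, including those without a CpG-rich start.

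Libraries of like depth gave the same order. In the shallow libraries (replicates 1 and 2), the mean share of ribosomal protein genes was 27.5% with 1,25(OH)2D3 and 13.8% with vehicle, against 18.6% and 7.16% for all genes. In the deep pair (replicate 3) it was 36.2% with 1,25(OH)2D3 and 27.5% with vehicle, against 24.4% and 13.9% for all genes. Within that pair, 14 ribosomal protein genes had a peak in both libraries. Another 15 (18.8%, against 14.3% of all genes) had one only with 1,25(OH)2D3, and 8 (10%, against 3.82% of all genes) only with vehicle. The share of all genes with a peak in both is what remains of 24.4% after the 14.3% found only with 1,25(OH)2D3. It lies below the matching share of ribosomal protein genes.

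The direction turned when the lists were made equally long. With the first 8756 peaks of each list, 6, 8 and 6 ribosomal protein genes had a promoter peak with 1,25(OH)2D3, against 5, 16 and 19 with vehicle. The difference was then -8.33 percentage points. Over all genes the same lists gave 8.13%, 8.12% and 8.58% with 1,25(OH)2D3, against 5.58%, 6.51% and 8.07% with vehicle, so there the 1,25(OH)2D3 libraries stayed above the vehicle libraries. What the order of the lists follows is not stated in the files, so a list position is not a measured occupancy.

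By gene, 45 of the 80 ribosomal protein genes (56.2%) had a promoter peak in at least 1 library, against a background of 33.9% of all protein-coding genes and 48.7% of CpG-rich genes. The other 35 had none in any library. Of the 45, 14 had a peak in exactly 1 library (17.5% of the set, against 11.7% of all genes and 16.2% of CpG-rich genes). At least 1 1,25(OH)2D3 library had a peak at 39 genes (48.8%, against 29.7% of all genes and 43.9% of CpG-rich genes). At least 1 vehicle library had one at 30 genes (37.5%, against 18.5% and 25%). At least 2 1,25(OH)2D3 libraries had one at 25 genes (31.2%, against 19.4% of all genes and 28.5% of CpG-rich genes). At least 2 vehicle libraries had one at 10 genes (12.5%, against 6.87% and 9.24%).

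A promoter peak in all 6 libraries was found for 3 ribosomal protein genes (3.75%), Rpl10, Rpl18 and Rps7, against a background of 2.63% of all genes and 3.46% of CpG-rich genes. Rpl10 encodes a protein added late in the making of the large subunit. Its peak region, chrX:71515875-71516455, was centred 14 bp downstream of the start, in the untranslated first exon. Its position in the list, as a percentile where 100 is the first peak, was 61.6, 38.7 and 64.2 with 1,25(OH)2D3, against 59.6, 85.6 and 95.3 with vehicle. Rps7, one of the genes mutated in the human disorder Diamond-Blackfan anaemia, had a region on chr12:29320540-29320916 centred 90 bp downstream of its start. It stood at percentiles 63.9, 62.8 and 74.3 with 1,25(OH)2D3, against 81.5, 89.2 and 91.7 with vehicle. Both genes thus had a peak without added hormone too. Percentiles from lists of different length cannot show whether occupancy changed. The background of 2.63% is close to the share of ribosomal protein genes.

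Rpl18, a protein of the large subunit, reached all 6 libraries through 2 separate regions. The region on chr7:52969904-52970293, centred -729 bp from its start, was found in all 3 1,25(OH)2D3 libraries, at percentiles 75.02, 75.4 and 84.8, and in no vehicle library. It also lay within 1 kb of an annotated start of Sphk2, a sphingosine kinase gene on the opposite strand. The region on chr7:52973179-52973607, at an inner start of Rpl18 that is likewise close to a Sphk2 start, was found in 1,25(OH)2D3 replicate 1 and in all 3 vehicle libraries. The peaks at this pair of genes cannot be assigned to one of them from position alone.

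A promoter peak in all 3 1,25(OH)2D3 libraries and none with vehicle was found for 1 ribosomal protein gene (1.25%), against a background of 3.52% of all genes and 5.31% of CpG-rich genes. The gene was Rpl28, whose protein belongs to the large subunit. Its region, chr7:4744195-4744538, was centred -110 bp from the start and stood at percentiles 71.4, 78.1 and 94.2. The last of these, in 1,25(OH)2D3 replicate 3, was the only list position of at least 90 reached by a ribosomal protein gene promoter in a 1,25(OH)2D3 library. This count depended on single libraries, being 4 without 1,25(OH)2D3 replicate 1 and 2 without 1,25(OH)2D3 replicate 2 or 3 or without vehicle replicate 2 or 3. With these libraries left out, the shares of all genes were not counted. No ribosomal protein gene had a promoter peak in all 3 vehicle and no 1,25(OH)2D3 library (background 0.0134% of all genes, or 3 genes).

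A total of 9 ribosomal protein genes had a promoter peak in all 3 1,25(OH)2D3 libraries (11.2%, against 12.6% of all genes and 17.7% of CpG-rich genes), and 8 of these had one in a vehicle library as well. A vehicle peak was also the usual case over all genes. Of the 2814 genes with a peak in all 3 1,25(OH)2D3 libraries, 788 had none with vehicle. Besides the genes named above, the 9 ribosomal protein genes were Rps12, Rps26, Rps6, Rpl23 and Rpl24. Rps26, another Diamond-Blackfan anaemia gene, encodes a protein near the channel where messenger RNA leaves the ribosome. Its region, chr10:128063550-128063914, was centred -170 bp from the start. It stood at percentiles 80.9, 76.6 and 83.3 with 1,25(OH)2D3, against 96.5 and 99.4 in vehicle replicates 2 and 3, and was absent from vehicle replicate 1. The last value was the highest of any ribosomal protein promoter in any library. Rps6, the substrate of the S6 kinases downstream of mTOR, stood at 47.1, 47.8 and 53.8 with 1,25(OH)2D3, against 73.6 and 90.9 in vehicle replicates 2 and 3, and was absent from vehicle replicate 1. Leaving out vehicle replicate 1, the library with the shortest list, gave 6 genes with a promoter peak in every library, against 3 with it. Without that library the share of all genes was not counted.

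In all 3 vehicle libraries, 4 ribosomal protein genes had a promoter peak (5%, against 2.85% of all genes and 3.75% of CpG-rich genes). Besides Rpl10, Rpl18 and Rps7 this was Rps27l, a paralog of Rps27 known in human cells as a p53 target. Rps27l had no peak in 1,25(OH)2D3 replicate 1 and stood at percentiles 66.1 and 79.3 in 1,25(OH)2D3 replicates 2 and 3, against 81.6, 75.02 and 94.4 with vehicle.

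Promoter peaks in vehicle and in no 1,25(OH)2D3 library were found for 6 ribosomal protein genes (7.5%, against 4.23% of all genes and 4.82% of CpG-rich genes). Rpl38, which in mouse embryos is needed for the translation of Hox messenger RNAs, was the only one of them with 2 vehicle libraries. Its region, chr11:114529709-114529989, was centred 11 bp downstream of the start and stood at percentiles 47.7 and 79.4 in vehicle replicates 2 and 3. Rpl37a had a peak in vehicle replicate 2, and Rpl22, Rpl32, Rpl4 and Rps28 had one in vehicle replicate 3. The 5 promoter regions of the set with the highest mean list positions were Rps18 (94.7), Rpl22 (94.3), Rpl32 (93.5), Rps28 (93.3) and Rpl4 (93.1), and each came from vehicle replicate 3 alone. Those of Rps18, Rps28 and Rpl4 also lay within 1 kb of a start of Vps52, Ndufa7 and Zwilch, respectively. Position alone cannot assign them to one gene. In the set, 13 genes had another protein-coding start on the opposite strand within 1 kb.

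**Figure D2:**
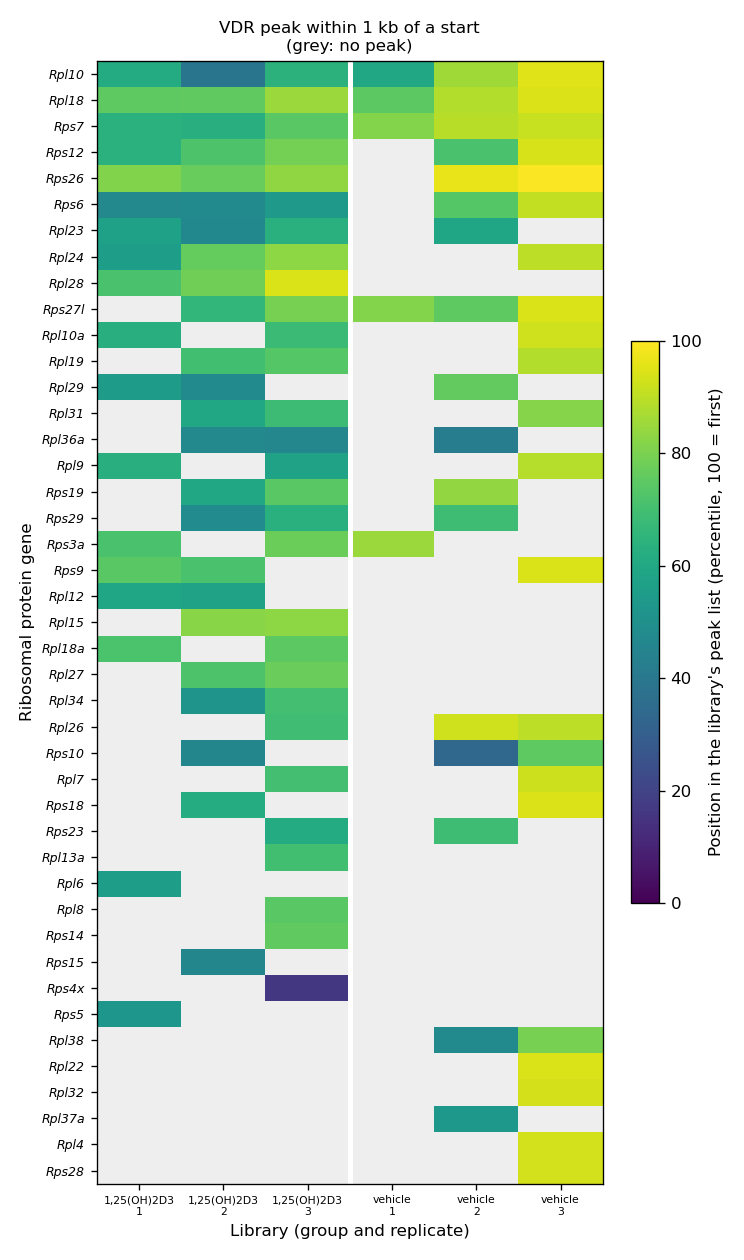
Ribosomal protein genes with a promoter peak in at least 1 library (rows, 43 of the 45 genes) in each of the 3 1,25(OH)2D3 and 3 vehicle libraries (columns). Colour gives the position of the highest promoter peak in that library's list as a percentile (100 = first) and grey means no peak; Rpl10, Rpl18 and Rps7 are filled in every column, Rpl28 in the 1,25(OH)2D3 columns only, and most of the brightest cells lie in vehicle replicate 3.

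Within each list, ribosomal protein promoters were set beside the other promoters of the same list. The median percentile of ribosomal protein promoter regions was 62.9, 59.8 and 73.7 with 1,25(OH)2D3, against 81.5, 73.6 and 92.9 with vehicle. Promoter regions of all other genes had medians of 62.8, 61.7 and 68.9 with 1,25(OH)2D3, against 63.2, 63.2 and 83.5 with vehicle. With hormone the ribosomal protein promoters were within 5 percentile points of the other promoters, and with vehicle they stood about 9 to 18 points above them. Other promoter regions at CpG-rich starts had medians of 63.5, 61.9 and 69.7 with 1,25(OH)2D3, against 63.7, 64.0 and 86.0 with vehicle. With vehicle the ribosomal protein promoters stood above these too, by the least in vehicle replicate 3. In vehicle replicate 3, 17 of 22 regions (77.3%) stood at percentile 90 or higher, against 33.2% of other promoter regions and 37.9% of those at CpG-rich starts. In the 1,25(OH)2D3 libraries 0 of 20, 0 of 26 and 1 of 29 did so. The medians of vehicle replicate 1 rest on 5 regions. Vehicle replicate 3 also differed from the others in that its list order followed the peak numbers less closely (median Spearman correlation within chromosomes 0.852, against 0.962 to 0.994), and the part this has in the positions was not tested.

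**Figure D3:**
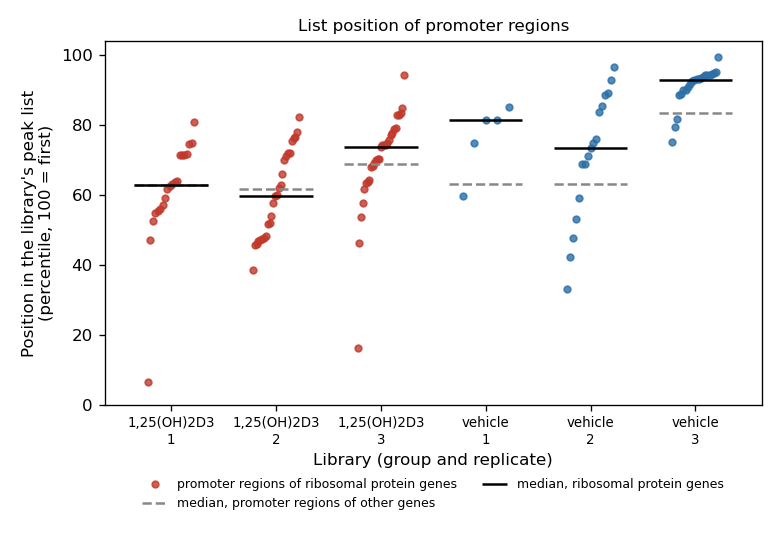
List position (percentile, 100 = first peak) of each ribosomal protein promoter region, by library, with their median (solid line) and the median of all other promoter regions (dashed line). The solid and dashed lines lie within 5 points of each other in the 3 1,25(OH)2D3 libraries and apart in the 3 vehicle libraries, where the solid lines stand at 81.5, 73.6 and 92.9.

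Promoter peaks of ribosomal protein genes lay close to the start. Of the 119 peaks counted over the 6 libraries, 47 (39.5%) had their centre in the 200 bp upstream and 56 (47.1%) in the 200 bp downstream of the nearest start. Among promoter peaks of other genes these shares were 24.6% and 21.2%. Within 250 bp of a start lay 85%, 84.6% and 89.7% of the ribosomal protein peaks with 1,25(OH)2D3, against 100%, 88.2% and 100% with vehicle, while for other genes the range over libraries was 48.5% to 55.6%. The 119 peaks merged into 49 distinct regions. The centres of 20 of these lay in untranslated exons, 16 upstream of the gene, 7 in introns, 4 in exons of transcripts without a coding sequence, 1 in a coding exon and 1 downstream of the gene body.

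**Figure D4:**
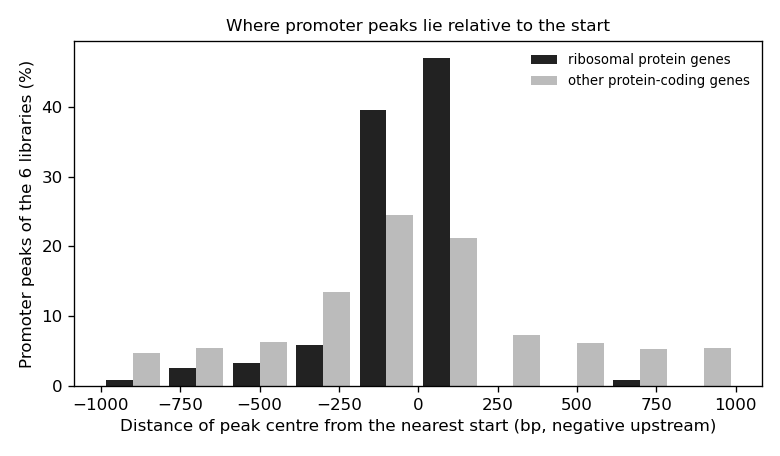
Distance of promoter peak centres from the nearest annotated start (bp, negative upstream) in bins of 200 bp, as a percentage of the promoter peaks of the 6 libraries, for ribosomal protein genes (black, 119 peaks) and for other protein-coding genes (grey). The bins on both sides of the start hold 39.5% and 47.1% of the ribosomal protein peaks and 24.6% and 21.2% of the others.

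DR3 elements were no more frequent in the ribosomal protein promoter regions than in windows beside them. With at most 2 mismatches, on either strand and within 100 bp of the centre, 18 of the 49 regions (36.7%, 95% Wilson interval 24.7% to 50.7%) held one. The windows 5 kb to the right gave the same 18 of 49. Among promoter regions of other genes 48.2% held one (46.2% at CpG-rich starts), against 35.3% of their windows 5 kb away. With at most 1 mismatch, Rpl6 alone held an element (1 of 49, or 2.04%), against 10.7% of other promoter regions and 9.58% of those at CpG-rich starts. Its region was found in 1,25(OH)2D3 replicate 1 only. No region held an exact DR3 (0 of 49, with a Wilson upper bound of 7.27%), against 1.53% of other promoter regions. Of the 2 regions found in all 3 1,25(OH)2D3 libraries and none with vehicle, at Rpl28 and Rpl18, both held a match with 2 mismatches, as did 55.8% of such regions at other genes. Both lines are printed above.

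Motifs of general promoter factors were searched in the same 201-base windows on both strands. CCGGAA (ETS) was present in 17 of the 49 ribosomal protein regions (34.7%), against 12.3% of other promoter regions and 14.4% of those at CpG-rich starts. ATGGCGG (YY1) was present in 8 (16.3%), against 3.60% and 4.07%. GGGCGG (SP1) was present in 19 (38.8%), against 25.9% and 30.9%, and CCAAT (NFY) in 5 (10.2%), against 21.0% and 20.4%. The other 6 motifs, GCGCATGC (NRF1), TGACGTCA (CRE), CACGTG (E-box), TGANTCA (AP-1), TATAAA (the box bound by TBP) and CAAAGTCC (HNF4), were each present in 4 regions or fewer. NRF1 was present in 2.04%, against 1.21% and 1.42%, CRE in 4.08%, against 0.855% and 1.01%, and TATAAA in 8.16%, against 7.38% and 6.56%. The E-box was present in 4.08%, against 4.86% and 5.19%, AP-1 in 4.08%, against 6.61% and 5.62%, and HNF4 in 0%, against 2.47% and 1.64%. These shares rest on few regions. Regions of ribosomal protein genes lay nearer to starts than those of other genes, so the windows differ in what they cover.

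The same letters were then counted in the starts themselves, from 250 bases before to 50 after the outermost start, whether or not VDR was found there. CCGGAA was present at 34 of the 80 ribosomal protein starts (42.5%), against 17.5% of all genes and 30.4% of CpG-rich genes. It was present at 42.2% of the 45 genes with a promoter peak and at 42.9% of the 35 without one. ATGGCGG was present at 13.8% of ribosomal protein starts, against 4.98% of all genes and 9.00% of CpG-rich genes, and GGGCGG at 47.5%, against 43.4% and 76.3%. A pyrimidine run of at least 8 bases within 5 bp of the annotated start was found at 15 genes (18.8%), against 9.67% of all genes and 8.32% of CpG-rich genes. It was found at 20% of the genes with a promoter peak and at 17.1% of those without one. A match in letters is no measure of a bound factor.

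Promoter peaks were spread over both subunits. Of the 48 large-subunit genes, 26 had a peak in at least 1 library, with a mean share of 29.2% ± 7.51 with 1,25(OH)2D3 and 16.0% ± 11.5 with vehicle (SD, n = 3 each). Of the 32 small-subunit genes, 19 had one, with 32.3% ± 9.55 with 1,25(OH)2D3 and 21.9% ± 10.8 with vehicle (SD, n = 3 each). Of the 30 genes that host an annotated snoRNA, 11 had one (36.7%), with a mean share of 20% with 1,25(OH)2D3 and 10% with vehicle. Of the 50 without a snoRNA, 34 had one (68%), with 36.7% with 1,25(OH)2D3 and 23.3% with vehicle. A peak in at least 1 library was found at 56.2% of the whole set and at 33.9% of all genes. These subgroups were described and not tested against each other.

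Among the 35 ribosomal protein genes without a promoter peak in any library (43.8% of the set, against 66.1% of all genes) were several of those named by role. Rpl5 and Rpl11, which bind and restrain the p53 ligase Mdm2 when ribosome assembly fails, had none. The P-stalk genes Rplp0, Rplp1 and Rplp2, whose proteins recruit the elongation factors, also had none. The same held for Rpl3l, Rpl10l and Rpl39l, paralogs expressed mainly in striated muscle or testis. Rps19, the gene most often mutated in Diamond-Blackfan anaemia, had a promoter peak in 2 1,25(OH)2D3 libraries and 1 vehicle library. Of 9 genes of that disorder in the set, 5 had a promoter peak in at least 1 library, among them Rps7, Rps19 and Rps26. This share (55.6%) is close to that of the whole set (56.2%), against 33.9% of all genes. With so few genes, absence or presence in a role group is no trait of the group.

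The second comparison was the number of VDR peaks within 50 kb of each gene body. Ribosomal protein genes had a mean of 2.65, 3.40 and 4.03 peaks with 1,25(OH)2D3, against 1.04, 1.89 and 2.85 with vehicle. The mean was 3.36 ± 0.688 with 1,25(OH)2D3 and 1.93 ± 0.907 with vehicle (SD, n = 3 each), a difference of 1.43 peaks per gene (SD of the 3 same-numbered pair differences 0.229). All genes averaged 3.20 ± 0.704 with 1,25(OH)2D3 and 1.94 ± 1.33 with vehicle, a difference of 1.26, and CpG-rich genes 4.10 ± 0.934 with 1,25(OH)2D3 and 2.41 ± 1.64 with vehicle, a difference of 1.69. In vehicle replicate 3 the ribosomal protein genes had fewer peaks than all genes (2.85 against 3.43), and in the other 5 libraries they had more. With the first 8756 peaks of each list the difference for ribosomal protein genes was -0.0625.

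The mean was higher with 1,25(OH)2D3 at 64 of the 80 genes (63.6% of all genes), equal at 5 and lower at 11 (20.4% of all genes). The median difference was 1.33 peaks for ribosomal protein genes, 0.667 for all genes and 1.33 for CpG-rich genes. Without vehicle replicate 3, 73 of the 80 were higher and 4 lower, and 78.6% of all genes were higher. In the exact two-sided permutation test over the 6 libraries, with Benjamini-Hochberg adjustment over all 22367 genes, the smallest p that 3 against 3 can give is 0.1. The smallest adjusted p was 0.623, so no gene could be called, and 0 genes had an unadjusted p under 0.05.

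Every 1,25(OH)2D3 library lay above every vehicle library at 15 ribosomal protein genes (18.8%), against a background of 16% of all genes and 19.1% of CpG-rich genes. The share is near that background. Among them were Rps3, Rpl18, Rps18, Rps26, Rps25, Rps3a, Rps16, Rps15, Rpl23, Rpl28, Rpl38, Rpl3l, Rps2 and Rpl22. Rpl3l and Rps2 are neighbours on chromosome 17 and share their peaks. No ribosomal protein gene had every 1,25(OH)2D3 library below every vehicle library (background 0.0447%). Leaving out 1,25(OH)2D3 replicate 1 moved the count of 15 to 29, leaving out vehicle replicate 2 moved it to 23, and leaving out vehicle replicate 3 moved it to 34. A rule over fewer libraries is easier to meet for any gene, and the shares of all genes under these rules were not counted.

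Rps3, a small-subunit protein that also takes part in DNA repair, had the largest difference, 5.0 peaks. It had 7, 10 and 11 peaks with 1,25(OH)2D3, against 4, 3 and 6 with vehicle (exact permutation p = 0.1, adjusted p = 0.623). None lay at its own promoter: the regions found in all 3 1,25(OH)2D3 libraries had an annotated start of Klhl35 or Arrb1 nearest. Rpl18 had 10, 10 and 9 peaks with 1,25(OH)2D3, against 4, 5 and 7 with vehicle. Most of its neighbouring regions had a start of Sult2b1, Dbp or another gene nearest. Rps26 had 7, 7 and 8 peaks with 1,25(OH)2D3, against 1, 4 and 4 with vehicle, and several of these regions had the receptor tyrosine kinase gene Erbb3 nearest. At these genes the groups did not overlap.

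Rps18 had 6, 9 and 8 peaks with 1,25(OH)2D3, against 2, 4 and 4 with vehicle. Rps25, whose protein is needed for initiation at some viral entry sites, had 4, 7 and 6, against 1, 1 and 3. Rps3a had 4, 8 and 6 with 1,25(OH)2D3, against 1, 3 and 2 with vehicle. In these genes too the groups did not overlap, and the same was true of Rps16, with 5, 5 and 6 peaks with 1,25(OH)2D3, against 0, 2 and 3 with vehicle. Rps15 had 7, 7 and 7 with 1,25(OH)2D3, against 2, 5 and 4 with vehicle, also without overlap, and tied with Rplp2 for the tenth largest difference. The groups touched or overlapped at Rpl7a, Rps21 and Rplp2. Rpl7a had 6, 9 and 9 with 1,25(OH)2D3, against 4, 6 and 2 with vehicle. Rps21 had 8, 9 and 11, against 4, 4 and 8, and Rplp2 had 3, 7 and 8, against 1, 4 and 3.

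**Figure D5:**
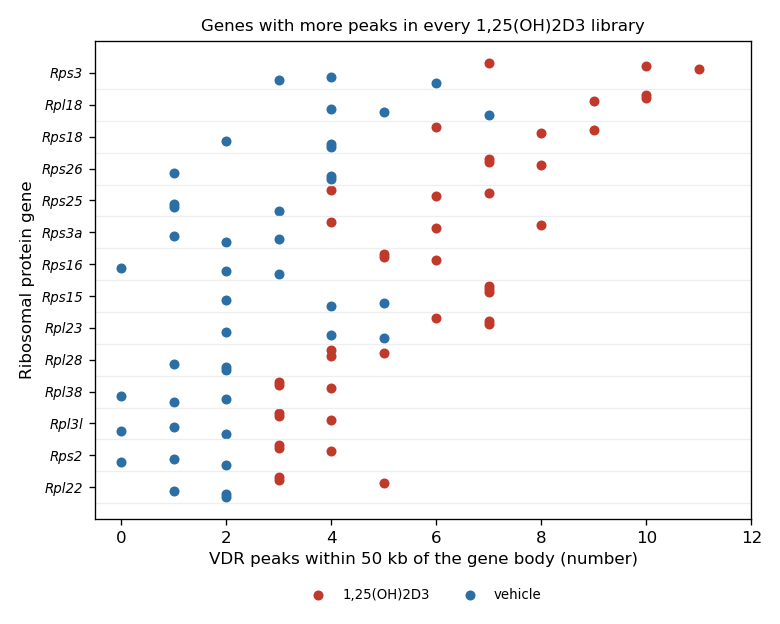
Number of VDR peaks within 50 kb of the gene body in each 1,25(OH)2D3 library (red) and each vehicle library (blue) for 14 of the 15 ribosomal protein genes at which every 1,25(OH)2D3 library lay above every vehicle library; each point is 1 library. Rps3 spans 7 to 11 peaks with 1,25(OH)2D3 and 3 to 6 with vehicle; these genes were selected for not overlapping, so the separation itself is no result.

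At the other end, Rpl35a had 0 peaks within 50 kb in every library, the only such ribosomal protein gene (9.45% of all genes had none). Rpl5 had 0, 0 and 1 peaks with 1,25(OH)2D3, against 0, 0 and 2 with vehicle, and Rpl11 had 3, 5 and 6, against 2, 1 and 4. Rplp0 had 2, 2 and 1 with 1,25(OH)2D3, against 1, 1 and 3 with vehicle, and Rplp1 had 2, 3 and 1, against 1, 0 and 0. Among the tissue-restricted paralogs, Rpl3l had 3, 3 and 4 with 1,25(OH)2D3, against 1, 0 and 2 with vehicle. Rpl10l had 0, 0 and 0, against 0, 0 and 2, and Rpl39l had 2, 3 and 3, against 2, 3 and 4.

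Most peaks near ribosomal protein genes lay closer to the start of another gene. The 80 neighbourhoods held 531 distinct regions, and a ribosomal protein gene had the nearest start for 131 of them (24.7%). A ribosomal protein gene had a median of 4 other protein-coding genes within 50 kb, against 3 for any protein-coding gene. The matching share of regions around other genes was not counted, so the 24.7% shows nothing particular to the set. Of the 531 regions, 41 (7.72%) were found in all 6 libraries, 36 (6.78%) in all 3 1,25(OH)2D3 libraries and none with vehicle, and 1 in all 3 vehicle and no 1,25(OH)2D3 library. Over all 87029 merged regions the first 2 shares were 4.99% and 5.39%. The single region found in all 3 vehicle libraries only lay near Rpl9 on chr5:65824069-65824443 and had the start of Ugdh, an enzyme gene of glucuronic acid synthesis, nearest. A total of 261 regions (49.2%) were found in 1 library only, against 62.6% of all regions. Those from vehicle replicate 3 alone numbered 96 (18.1%), against 37.0% of all regions.

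Other genes of the translation machinery were set beside the cytosolic ribosomal protein genes, with the same counts. The background for a promoter peak in at least 1 library was 33.9% of all genes. Of 76 mitochondrial ribosomal protein genes, 48 had a promoter peak in at least 1 library, with a mean share of 43.0% ± 10.6 with 1,25(OH)2D3 and 21.1% ± 9.21 with vehicle (SD, n = 3 each). The difference between treatments was 12.1 percentage points for the cytosolic set and 21.9 for the mitochondrial set. A promoter peak in all 6 libraries was found for 5 of them, among them Mrpl16, Mrps10, Mrps18c and Mrps30. Both sets of ribosomal proteins had close vehicle shares, and the cytosolic genes had the lower mean share with 1,25(OH)2D3 (30.4%). The difference between the sets was not tested.

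Of 29 translation factor genes, 22 had a promoter peak in at least 1 library, with a mean share of 48.3% with 1,25(OH)2D3 and 24.1% with vehicle. Eef2, the factor that moves the ribosome along, had one in all 6 libraries, and Eef1b2, Eif2s3x and Eif4a2 had one in all 3 1,25(OH)2D3 and 2 vehicle libraries. Of 23 ribosome biogenesis genes, 14 had one, with 40.6% with 1,25(OH)2D3 and 24.6% with vehicle. Rrn3, an initiation factor of RNA polymerase I, and Utp3 had one in all 6 libraries, the polymerase I subunit gene Polr1a in 3 1,25(OH)2D3 and 2 vehicle libraries, and the nucleolin gene Ncl in 3 and 1. Of 20 aminoacyl-tRNA synthetase genes, 13 had one, with 38.3% with 1,25(OH)2D3 and 20% with vehicle. Yars had a peak in 3 1,25(OH)2D3 and 2 vehicle libraries, Aars and Eprs in 3 and 1, and Farsb in 2 and 2.

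Of 12 genes for growth control upstream of ribosome synthesis, 4 had a promoter peak in at least 1 library, with a mean share of 19.4% with 1,25(OH)2D3 and 11.1% with vehicle. Mdm2 and Myc had one in 2 1,25(OH)2D3 libraries and 1 vehicle library, Rptor in 2 and 0, and Mlst8 in 1 and 2. Of 7 relatives of ribosomal proteins outside the rule, 4 had one. Gnb2l1, which encodes the ribosome-bound scaffold Rack1, had one in all 6 libraries, Rsl24d1 in 2 1,25(OH)2D3 libraries and 1 vehicle library, Rpl7l1 in 0 and 2, and Rpl22l1 in 1 and 0. Apart from the growth control genes and the relatives outside the rule, each of these lists had a higher mean share with 1,25(OH)2D3 than the cytosolic ribosomal protein genes.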

How the data were processed

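Per the submitters' processing notes, reads were aligned to mm9 with Bowtie and peaks were called with HOMER; versions are not given in the sources used here. Per the file headers, calling was done per library with the same input file. The headers list an FDR threshold of 0.001, a 4-fold minimum over input and over the local 10 kb, a Poisson p threshold of 0.0001 and a limit of 2 on clonal signal. The deposited score is 1 for every peak, so it ranks nothing, and the deposited positions give peaks of fixed width per library. Input and IgG tracks were not analysed here.

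From these positions, peaks were assigned to genes by their centre, using GENCODE mouse 1 (Ensembl 65, NCBI build 37, which is mm9). Peaks that overlapped by at least 1 bp were merged across libraries. The order of a list served as its ranking; what it follows is not stated. Analysis used Python 3.11.15, numpy 2.4.6, pandas 2.3.3, scipy 1.17.1 and matplotlib 3.10.9, and the peak-to-gene counting was tested on simulated data. The members, lists and tests were chosen with earlier results of these data known. The rule named genes by their promoter class over the libraries, the 10 largest differences within 50 kb, the 5 highest list positions, genes with no peak, the tissue-restricted, P-stalk, Rpl5 and Rpl11 genes, Rps6, Rps19, Rps27l and Rack1, and up to 4 genes per comparison list; other genes named were chosen after their values were seen. The values of some members are not reported here singly, though they are part of all counts.

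Whether libraries are separate mice is not stated, so spreads and p-values describe these libraries only. Tag totals ranged from 15991198 to 68560701, and replicate 3 was the deep library of both groups. The labels state no pairing. Same-numbered libraries deviated together over genes (correlations 0.407, 0.133 and 0.368, against -0.419 to 0.0804 for different numbers), so the numbers were taken to pair the libraries. The value for replicate 2 (0.133) is close to the highest for different numbers, and the part of shared depth in that for replicate 3 was not tested. The SDs of pair differences rest on this assumed pairing. Alternatives covered promoter distance, start choice, neighbourhood width, list length, depth, single libraries, the pairing and the DR3 search.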

Additional observations from a re-analysis of the deposited data

How the results depend on the processing

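The difference in promoter share (12.1 percentage points) kept its direction and stayed within 1 SD under 14 of 15 alternatives, with 6.04 to 16.7 when 1 library was left out. Here 1 SD is the pooled SD between libraries, 9.21 points. This rule is wide, since the 6.04 found without vehicle replicate 1 counted as unchanged. Equal list lengths turned the difference to -8.33. The difference in peaks within 50 kb (1.43) kept its direction and stayed within 1 SD (0.805 peaks) under 10 of 13 alternatives, with 0.990 to 1.90 when 1 library was left out. It was 0.417 within 10 kb, 2.70 within 100 kb and -0.0625 with equal list lengths. With the replicate block, the paired differences were 12.1 (SD 3.82) and 1.43 (SD 0.229). A paired mean equals the unpaired mean by construction, so this alternative, counted above as within 1 SD, could not differ. No single gene was called with the block, as without it, and none could be, since the smallest sign-flip p is 0.25. The block was not applied to the counts of genes.

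Counts of genes moved more. The count with a promoter peak in every 1,25(OH)2D3 and no vehicle library (1) was 2 with the outermost start only and 1 to 4 with 1 library left out. It was 4 in the shallow libraries (5%, against 6.52% of all genes) and 15 in the deep pair (18.8%, against 14.3% of all genes). The count in all libraries (3) was 1 with equal list lengths, 3 to 6 with 1 library left out and 14 in the deep pair. The count with non-overlapping numbers within 50 kb (15) was 4 within 10 kb and 4 with equal list lengths, 16 to 34 with 1 library left out, 37 in the shallow libraries and 50 in the deep pair. Rules over fewer libraries are easier to meet for any gene, and the cause of the other moves was not tested. For the other counts over fewer libraries, apart from the 14 in the deep pair, the shares of all genes were not counted. Those counts without a share of all genes show nothing particular to the set. The DR3 share (36.7%) was 2.04% with at most 1 mismatch.

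Peak lists without heights limit these results, since a gene just under the calling threshold of a library counts as having no peak. Peaks per library varied with depth and treatment together, and the single input came from a 1,25(OH)2D3 mouse, whose part in the vehicle lists was not tested.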
